A study of Homo sapiens with 43 samples.

Results

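The RNA sites of RBFOX2 were compared between an antibody against the protein itself and an antibody against a V5 tag. The members are all peaks of the lists titled RBFOX2 wt-eCLIP and RBFOX2 V5-eCLIP, 43375 and 47459 peaks, and they come from 2 of the 25 libraries with a peak list among the 43 samples of the series. Both lists were taken whole, and a peak here is 1 row of a list, with a position, a strand and the authors' own −log10 p and log2 fold over size-matched input. eCLIP (enhanced crosslinking and immunoprecipitation) fixes proteins to RNA with ultraviolet light, trims the RNA with RNase I, immunoprecipitates the protein and sequences the RNA that stays attached.

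Both libraries were made from HEK293T cells, a human embryonic kidney line, crosslinked at 254 nm while plated. The wild-type library came from unmodified cells with a Bethyl antibody against RBFOX2, called wild type below. The V5 library came from cells in which the gene for RBFOX2 carries a CRISPR/Cas9-integrated tag, according to the series title, and used a Bethyl antibody against V5. The labels do not give the tagged end of the protein, the number of tagged alleles or whether the tagged line is 1 clone. Each state had 1 library with its own input, so the comparison has no replicate check and carries no test. The 95% Wilson intervals given reflect only how many peaks were counted, and adjoining peaks can share 1 binding event. Antibody and cell line changed together, so that their parts in any difference cannot be told apart. Peak lists give no expression level, and the identity of the line was not examined here.

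RBFOX2 is a splicing regulator with a single RNA recognition motif that binds the short element GCAUG, often preceded by U. As background, RBFOX proteins bound in the intron downstream of an alternative exon usually favour its inclusion, and binding upstream usually favours skipping. Many of their sites lie in introns of nascent transcripts, far from exons as well as next to them. The positions here are in build hg19, and no sequence or gene annotation of that build was used, so sites are described by position and not by gene or motif.

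Some RBFOX2 sites significant with both antibodies were runs of adjoining peaks, while most sites were significant with 1 antibody only. A peak was called significant where its log2 fold reached 3, which is 8-fold over input, and its −log10 p also reached 3. Significant peaks of either library were merged into regions on a strand at gaps of at most 50 nt. This gave 3325 regions, of which 649 held a significant peak of each library, 1799 of wild type alone and 877 of V5 alone. In 630 of the 649, peaks of the libraries overlapped each other, and in the other 19 they only lay within the merging gap.

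The regions significant in both were ranked by the lower of their 2 highest log2 folds, so that presence in both libraries was fixed by the choice. The first of them was on chromosome 5, minus strand, at chr5:139646453-139646768. Wild type had 4 significant peaks there, with log2 folds in order of position of 5.04, 5.36, 7.31 and 6.75. V5 had 5, with log2 folds of 5.47, 7.03, 6.58, 6.21 and 5.78. Peaks of either antibody thus spanned the region with short gaps, but the highest peak of each library lay at a different place in it. The wild-type maximum was at chr5:139646628-139646695 and the V5 maximum at chr5:139646495-139646616, where wild type had 5.36.

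The second lay on the plus strand of chromosome 1, at chr1:227954942-227955576, with 8 significant peaks in each library. Wild-type log2 folds along the strand were 4.26, 4.0, 6.16, 5.89, 6.50, 7.49, 7.08 and 6.93. V5 log2 folds were 3.73, 4.60, 4.76, 6.16, 5.85, 6.47, 6.32 and 7.01. In both libraries enrichment was lowest at the upstream end and highest over the downstream peaks.

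The third, on the minus strand at chr3:47457311-47457598, had 5 wild-type and 4 V5 peaks, with a highest log2 fold of 6.66 in wild type and 6.47 in V5. The remaining regions of the highest 10 ranged from nearly equal maxima to a wide difference. At chr2:70974490-70974762 on the minus strand the values were 6.24 in wild type and 6.28 in V5. At chr20:62298990-62299627 on the plus strand they were 6.10 and 6.74, from 7 peaks in each library. The V5 peak of 6.74 lay over wild-type peaks of 4.14 and 3.18, and the wild-type peak of 6.10 lay over a V5 peak of 3.76.

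On the minus strand, chr6:131200951-131201264 had 6.48 in wild type and 6.09 in V5, and chr16:3104061-3104394 had 6.78 and 6.07. The short region chr10:97393112-97393230, 119 nt long, had 6.06 from 1 wild-type peak and 6.53 from 2 V5 peaks. The widest difference among the 10 was at chr13:111314479-111314897, with 7.25 in wild type and 6.00 in V5. The tenth, chr12:391374-391673, had 6.14 and 6.00 and was the only one of the 10 significant in another library, in FMR1 wild type and FMR1 FLAG. None of the 10 was significant in any of the 14 tag-only libraries, which are named in the labels by FLAG or V5 and a gel range, without a protein. Of all 649 regions significant in both, 2.77% were significant in a tag-only library and 6.32% in any other library. The counts among the 10 are near these shares and do not set the 10 apart.

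**Figure D1:**
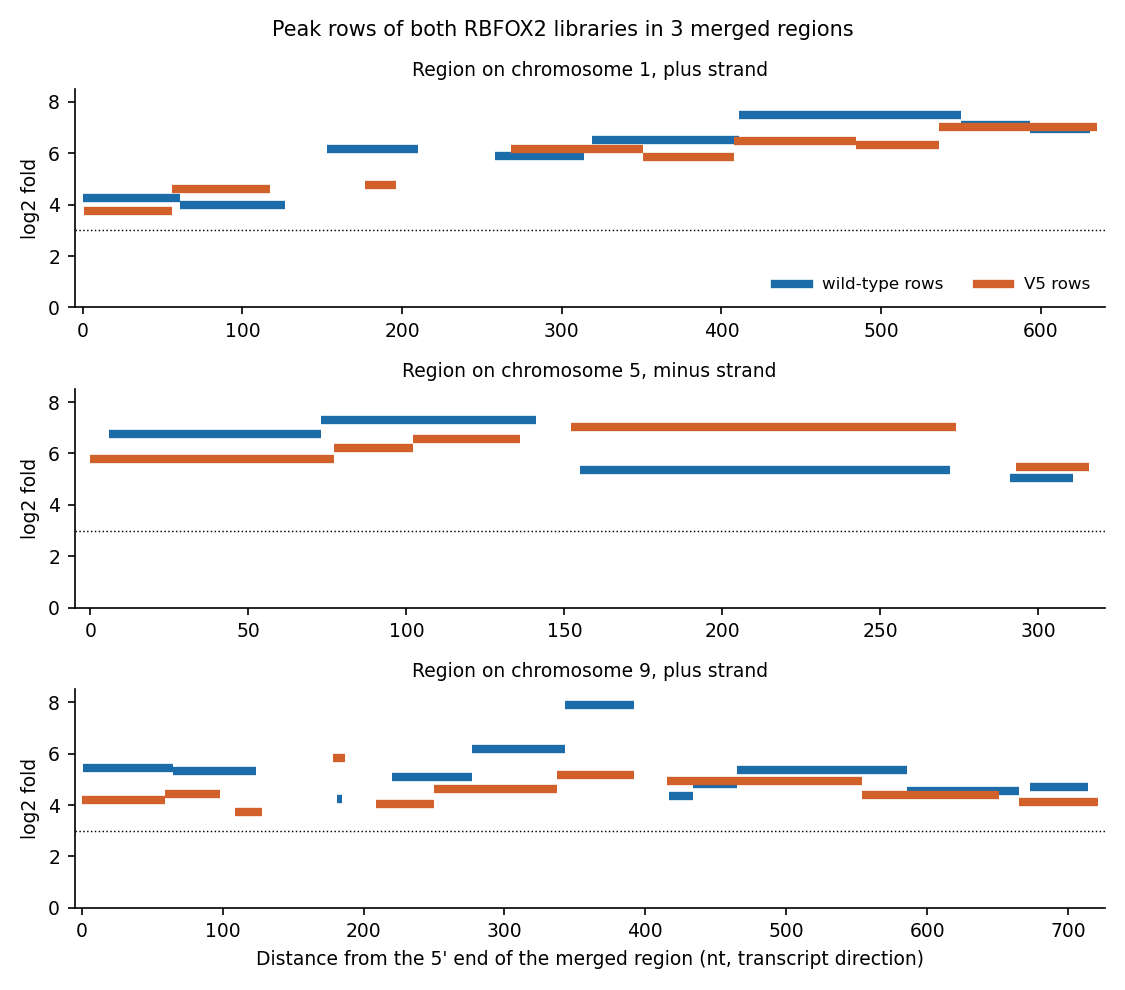
Peaks of both RBFOX2 libraries in 3 merged regions, drawn as bars against distance from the region's 5′ end in nt, in the direction of transcription, and against log2 fold over input, with the threshold of 3 dotted. In the regions on chromosomes 1 and 5 both libraries had peaks along the stretch with log2 folds between 3.73 and 7.49, and on chromosome 9 the wild-type peak at 7.90 stood above the V5 peak at 5.18.

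The highest single peak of each list was matched in the other list at a much lower fold. In wild type it lay at chr9:130995596-130995644 on the plus strand, with a log2 fold of 7.90, and the V5 peak over it had 5.18. In V5 it lay at chr7:100173027-100173115 on the minus strand, with 7.42, and the wild-type peak over it had 4.18. The second highest V5 peak, chr2:9078624-9078828 on the minus strand, had 7.36 against 4.16 in wild type. The wild-type peaks of rank 2 and 3, chr7:4757069-4757200 on the plus strand and chr2:130919794-130919879 on the minus strand, had 7.57 and 7.56, and their V5 peaks had 5.39 and 4.34. These single peaks were chosen for being highest in 1 list, which by itself favours a lower value in the other.

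The wild-type summit on chromosome 9 sat in the region with the most peaks, chr9:130995253-130995973. It was 721 nt long, with 11 wild-type and 10 V5 significant peaks. V5 had its own maximum there, a log2 fold of 5.82, in a short peak at chr9:130995431-130995439, where the overlapping wild-type peak had 4.24. Of the 649 regions found with both antibodies, 144 held at least 4 peaks and 37 at least 8. Their median width was 105 nt, against 57 nt for regions of wild type alone and 51 nt for regions of V5 alone. Of the regions found with 1 antibody, 1650 of 1799 in wild type and 835 of 877 in V5 were a single peak. Regions found with both antibodies hold at least 1 peak of each library by definition. Their greater width and number of peaks therefore follow in part from the merging rule.

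Across whole lists, most peaks were not enriched enough to be called, in either library. Significant peaks made up 7.03% of wild-type peaks and 4.0% of V5 peaks, 3049 and 1900. Their median log2 folds were nearly the same, 3.91 in wild type with quartiles of 3.44 and 4.44, and 3.88 in V5 with quartiles of 3.37 and 4.39. The median width of a significant peak was 58 nt in wild type and 55 nt in V5. The log2 fold was at least 5 in 347 wild-type and 189 V5 significant peaks. A further 1835 wild-type and 1353 V5 peaks had a log2 fold of at least 3 but a −log10 p under 3.

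The p-values cannot rank the strongest sites. Of the significant peaks, 232 in wild type and 126 in V5 carried the same −log10 p of 15.7, the value of a p of 2.2e-16, and these had log2 folds from 4.08 upward in wild type and from 4.18 in V5. Other significant peaks carried higher values, up to a cap of 400 that 11 wild-type and 10 V5 significant peaks reached. Folds were therefore used to order sites.

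Mitochondrial peaks lay mostly below input, in 71.7% of cases in wild type and 83.0% in V5. The lists held 166 wild-type and 176 V5 peaks on the mitochondrial chromosome, with median log2 folds of −0.71 in each, and none was significant. Their highest log2 folds were 2.72 and 2.34. Among the 23 chromosomes 1 to 22 and X, significant peaks made up between 4.41% of peaks on chromosome 5 and 11.6% on chromosome 21 in wild type, and between 2.15% on chromosome 11 and 6.92% on chromosome 10 in V5.

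Overlap between the antibodies varied with how strongly a site was enriched. Peaks were counted as overlapping at 1 nt or more on the same strand, a rule that wider peaks meet more easily. The median width was 33 nt over all wild-type peaks and 58 nt over significant ones, and 29 and 55 nt in V5. The part of width in the shares below was not tested. Over all peaks, 27.5% of wild-type peaks were overlapped by some V5 peak and 25.3% of V5 peaks by some wild-type peak. Among significant peaks the shares were 60.2% (58.5% to 62.0%) of wild type and 75.1% (73.1% to 76.9%) of V5. On the opposite strand 0.0945% of wild-type peaks and 0.0843% of V5 peaks were overlapped, and no significant peak of either library was overlapped by a significant peak of the other.

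The relation to enrichment was not one-way over the whole range. Wild-type peaks with a log2 fold below 0, meaning less RNA than in the input, were overlapped by some V5 peak in 44.0% of 5515 cases. The share fell to 16.2% of 15622 peaks between 1 and 2, and rose to 80.6% (75.6% to 84.8%) of 283 significant peaks between 5 and 6. V5 peaks had the same shape, with 34.0% below 0, 18.5% between 1 and 2 and 90.9% (85.3% to 94.5%) of 154 significant peaks between 5 and 6. The depleted peaks were seldom matched by significant ones: a significant V5 peak overlapped 3 of the 5515, and a significant wild-type peak 6 of the 5977 in V5.

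Overlap by a significant peak was highest in the classes of highest fold. Over all peaks the background was 3.38% of wild-type peaks overlapped by a significant V5 peak and 3.92% of V5 peaks overlapped by a significant wild-type peak. Among wild-type significant peaks the share was 19.9% (18.0% to 21.9%) of 1579 peaks at log2 folds from 3 to 4 and 32.2% (29.6% to 35.0%) from 4 to 5. It was 61.1% (55.3% to 66.6%) from 5 to 6 and 85.9% (75.4% to 92.4%) of 64 peaks at 6 and above. For V5 significant peaks it was 41.7% (38.8% to 44.7%) from 3 to 4, 44.8% (41.0% to 48.6%) from 4 to 5, 76.0% (68.6% to 82.0%) from 5 to 6 and 35 of 35 at 6 and above. The V5 classes from 3 to 4 and from 4 to 5 did not differ beyond their intervals. Across the threshold itself the share did not rise. With a −log10 p of at least 3, 17.5% of 292 wild-type peaks with log2 folds from 2.75 to 3 had a significant V5 peak, and 12.1% of 503 from 3 to 3.25. For V5 peaks the corresponding shares were 39.9% of 286 and 37.1% of 345, and the intervals of each pair overlap.

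**Figure D2:**
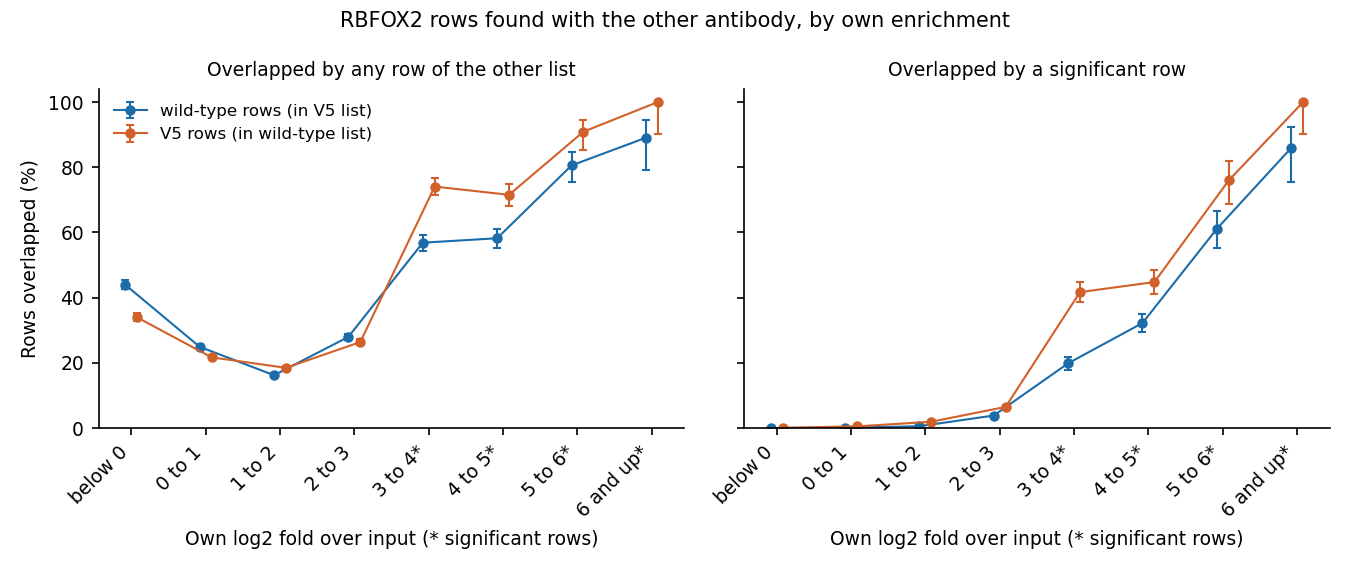
Share of RBFOX2 peaks of each library overlapped by any peak (left) or by a significant peak (right) of the other library, in classes of the peak's own log2 fold over input; bars are 95% Wilson intervals and asterisks mark classes of significant peaks. Overlap by any peak is lowest between log2 folds of 1 and 2, at 16.2% and 18.5%, and overlap by a significant peak reaches 85.9% of wild-type and 100% of V5 peaks in the highest class.

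Most sites significant with 1 antibody were still present, or had a neighbour, in the other list. That also held over the whole lists. Of all wild-type peaks, 62.2% had a V5 peak overlapping or within 1 kb, and for V5 peaks the share was 57.9%. Of the 3049 significant wild-type peaks, 904 had a significant V5 peak, and others had a V5 peak that was not significant. The latter comprised 51 with a log2 fold of at least 3 but too small a −log10 p, 506 with a highest V5 log2 fold from 2 to 3, 370 from 0 to 2, and 6 with a negative fold. A further 774 peaks had a V5 peak within 1 kb but none overlapping, and 438, or 14.4% (13.2% to 15.7%), had none within 1 kb.

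In the other direction 886 of the 1900 significant V5 peaks had a significant wild-type peak and others had one that was not significant. Of the latter, 123 had a log2 fold of at least 3 in wild type, 316 a highest log2 fold from 2 to 3, 99 from 0 to 2 and 2 a negative one. A wild-type peak lay within 1 kb of a further 283, and 191, or 10.1% (8.78% to 11.5%), had none. Opposite enrichment was thus rare: only depleted peaks of the other list lay over 6 significant wild-type peaks and 2 significant V5 peaks.

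Most sites without an overlapping significant partner had none within 10 kb either, and the partners within that distance were mainly on the same strand. Of the 2145 wild-type significant peaks without an overlapping significant V5 peak, 29.5% (27.6% to 31.5%) had one within 1 kb and 38.5% (36.4% to 40.5%) within 10 kb. On the opposite strand the share within 10 kb was 0.513%. For the 1014 such V5 peaks the values were 25.0% (22.5% to 27.8%) within 1 kb, 32.5% (29.7% to 35.5%) within 10 kb and 1.48% within 10 kb on the opposite strand. The share of all peaks of a list within these distances of a significant peak of the other was not computed. Whether these peaks lay closer than others therefore cannot be judged.

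Enrichment at overlapping peaks ran parallel in the libraries, with a wide scatter. Over all 12601 pairs of overlapping peaks, Pearson's r was 0.79 and Spearman's rho 0.74, as a description across peaks that share libraries and inputs. Over the 1035 pairs significant in both, where the threshold narrows the range, they were 0.35 and 0.30. In those pairs the median log2 fold was 4.37 in wild type and 4.04 in V5. The V5 minus wild-type difference had a median of −0.33, with quartiles of −0.99 and 0.27. V5 was the higher in 37.2% of these pairs, and the difference was under 1 on the log2 scale in 65.0%. In the 9975 pairs significant in neither library the median difference was 0.02, and V5 was the higher in 50.4%.

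V5 enrichment followed wild-type enrichment class by class. Where the wild-type log2 fold was below 0, the V5 peak of largest overlap had a median of −0.06 over 2425 peaks. The V5 median was 1.30 at wild-type values from 1 to 2, 2.56 from 3 to 4, 3.21 from 4 to 5, 3.84 from 5 to 6 and 5.08 at 6 and above. Of the 347 significant wild-type peaks of 5 and above, 62 had no overlapping V5 peak, and at the other 285 no V5 peak of largest overlap was depleted. Of the 64 wild-type peaks of 6 and above, 57 had a V5 peak, and its log2 fold was at least 3 in 94.7% of these.

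**Figure D3:**
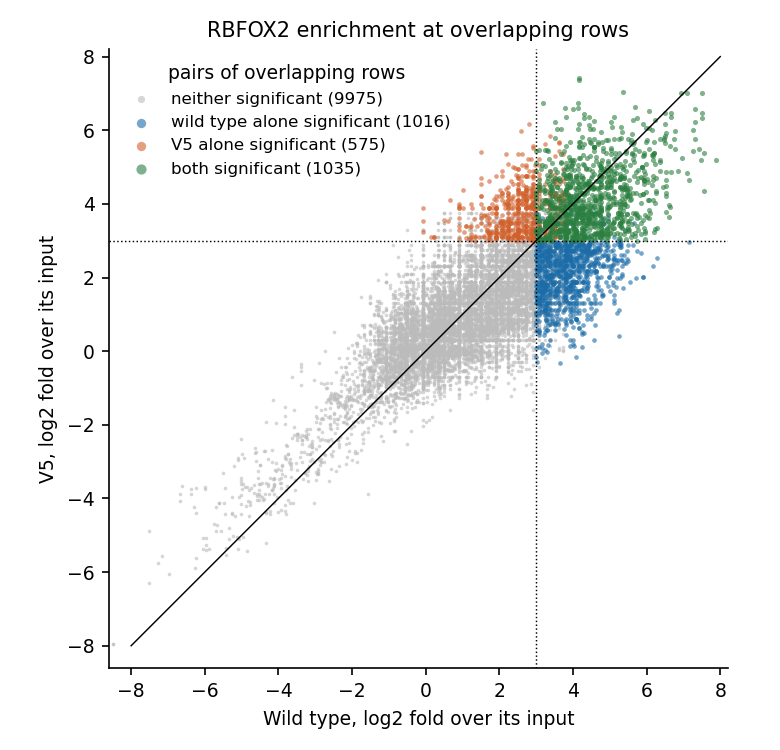
Log2 fold over input in wild type (x axis) and V5 (y axis) for 12601 pairs of overlapping peaks, coloured by which peak of the pair was significant; the solid line is equality and the dotted lines the threshold of 3. The 1035 pairs significant in both lie on either side of equality, with V5 the higher in 37.2%.

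Peak boundaries were close but seldom identical. In the 1035 pairs significant in both, the median overlap was 49 nt for median widths of 68 nt in wild type and 66 nt in V5. The V5 peak began a median of 2 nt downstream of the wild-type peak, with quartiles of 7.5 nt upstream and 15 nt downstream, and its 3′ end was displaced by a median of 0 nt, with quartiles of 11 nt to either side. The 5′ ends lay within 10 nt in 48.7% of pairs and matched to the nucleotide in 29 pairs. At least 50% of both peaks was shared in 67.9%. Most sites paired singly: 784 of 904 wild-type peaks met 1 significant V5 peak, and 756 of 886 V5 peaks met 1 wild-type peak.

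**Figure D4:**
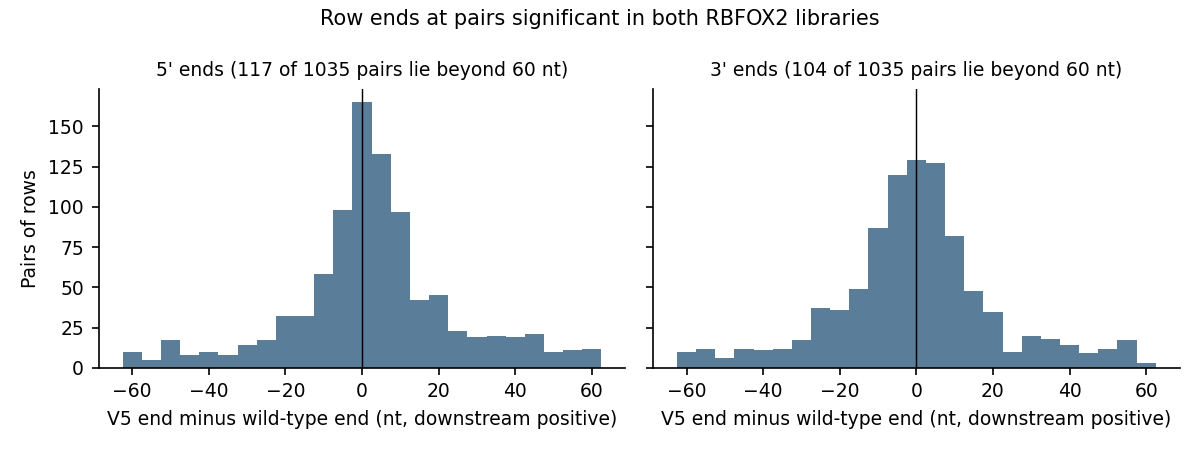
Displacement of the V5 peak's 5′ end (left) and 3′ end (right) from the wild-type end, in nt with downstream positive, for pairs of peaks significant in both RBFOX2 libraries, in bins of 5 nt. Both distributions centre near 0, and 48.7% of 5′ ends and 47.1% of 3′ ends lie within 10 nt.

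RBFOX2 sites were set in neighbourhoods. Regions chained on a strand at gaps of at most 10 kb gave 1997 neighbourhoods, of which 1364 held a single region and 96 held 5 or more. Wild type had sites in 1406 neighbourhoods and V5 in 1158, and 567 held both, which is 40.3% (37.8% to 42.9%) of the former and 49.0% (46.1% to 51.8%) of the latter. In 76 of the 567 no single region was significant in both. Of the 96 with 5 or more regions, 81 held both, 14 wild type alone and 1 V5 alone, against 567 holding both among all 1997. A neighbourhood with more regions has more chances to hold both libraries, so the 81 do not by themselves show closer agreement there.

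The neighbourhood with the most regions, 20 within 6.51 kb, lay on the plus strand at chr22:20067938-20074445. Of these, 7 were significant in both libraries, 10 in wild type alone and 3 in V5 alone, and the highest log2 folds were 5.94 in wild type and 5.39 in V5. All 25 V5 peaks there had positive folds, with a median of 2.85, against 3.86 over the 27 wild-type peaks. The next, chr2:132266219-132269645 on the plus strand, had 13 regions, of which 2 were significant in both and 10 in wild type alone. Its highest log2 folds were 5.44 in wild type and 3.62 in V5.

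A neighbourhood on the minus strand of chromosome 19 set the libraries apart. At chr19:1878430-1883995 wild type had 11 significant regions with log2 folds up to 4.50, and V5 had none. V5 had 15 peaks in the same stretch, with a median log2 fold of 0.81, a lowest of −0.29 and a highest of 2.30. The 18 wild-type peaks had a median of 3.17 and a lowest of 2.14. The V5 antibody thus gave peaks over this stretch, most of them below the lowest wild-type value. Of the 8 neighbourhoods with the most regions it was the only one without a significant V5 peak. These neighbourhoods were singled out after their values had been seen.

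Some strong sites had no peak of the other list within 1 kb. Over the whole lists, 62.2% of wild-type and 57.9% of V5 peaks had one overlapping or within that distance. Of the 1799 regions of wild type alone, 412, or 22.9%, had no V5 peak of any kind within 1 kb. Of the 877 regions of V5 alone, 186, or 21.2%, had no wild-type peak. The median log2 folds of the 412 and 186 regions, 3.91 and 3.76, were close to the 3.82 and 3.88 of regions with a peak of the other list within 1 kb. The 5 highest without V5 peaks were chr17:80808438-80808579 and chr17:80808091-80808256 on the plus strand, with wild-type log2 folds of 6.64 and 6.56, chr17:794898-795141 on the minus strand with 6.51, chr10:725558-725749 on the minus strand with 6.48 and chr3:127388314-127388436 on the plus strand with 5.95. The 2 plus-strand regions on chromosome 17 were neighbours, and the nearest V5 peak to them was 67.7 kb away. At the chromosome 10 region a significant V5 peak lay just outside the limit, 1.11 kb away.

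The 5 highest V5 counterparts were weaker and narrower, but they were the highest of 186 regions and those of wild type the highest of 412. A larger group by itself favours higher extremes. The 5 highest V5 regions without wild-type peaks were chr6:118638753-118638797 on the plus strand with a log2 fold of 5.59, chr6:16563558-16563610 on the minus strand with 5.47, and chr1:167965749-167965794 on the plus strand with 5.11. The others were chr8:143431434-143431462 and chr7:104909024-104909043 on the minus strand, with 5.05 and 5.00. Each was a single peak of 20 to 53 nt, whereas 4 of the 5 wild-type regions held 2 or 3 peaks over 142 to 244 nt. The nearest wild-type peak lay between 13.7 and 621.7 kb away. None of these 10 regions was significant in any of the other 23 libraries. Such significance was uncommon in general, at 5.84% of the 1799 regions of wild type alone and 9.35% of the 877 of V5 alone. Its absence from 10 regions therefore does not set them apart.

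The read counts behind the folds are not in the lists. Folds fell on steps, and if the commonest of them stands for 3 reads where the input has 1, then 57.3% of wild-type and 40.9% of V5 folds were whole multiples of 1 read, at a relative tolerance of 0.0001. A shifted step gave 0.00461% and 0%. Folds at 4 and 5 over 3 of the commonest were themselves frequent, with 3938 and 2420 peaks in wild type and 2709 and 1484 in V5. On this reading, which the files do not prove, 1 read over 1 read gave a log2 fold of −0.09 in wild type and 0.30 in V5, and 8-fold enrichment needed 9 reads in wild type and 7 in V5. The highest peaks of the 5 V5 regions without wild-type peaks stood at 39, 36, 28, 27 and 26 such steps. Those of the first 4 wild-type regions without V5 peaks stood at 106, 100, 97 and 95, and the fifth was on no whole step. The part of depth in the difference between the lists was not tested.

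The RBFOX2 lists were far closer to each other than to any other library once enrichment was required. Significant wild-type peaks were overlapped by any peak of another library in 2.53% (FLAG-only at 25 to 100 kDa) to 10.8% (DGCR8 wild type) of cases, against 60.2% for RBFOX2 V5. For significant V5 peaks the range over the 23 libraries was 2.89% to 10.4%, against 75.1% for RBFOX2 wild type. Peaks that were not significant showed no such gap in V5. They were overlapped by RBFOX2 wild type in 23.2%, and 8 of the 23 other libraries exceeded that, up to 30.6% in FMR1 FLAG, whose list was the longest with 100860 peaks. Of the 8, 5 were V5-only libraries, with shares from 23.2% to 25.0%, and none was a FLAG-only library, where the highest share was 22.5%. In wild type the peaks that were not significant met RBFOX2 V5 most often, with 25.0%, followed by FMR1 FLAG with 20.8%. For these peaks too, made without a V5 antibody, the highest V5-only share exceeded the highest FLAG-only share. The values were 18.9% for V5-only at 150 to 225 kDa and 17.3% for FLAG-only at 175 to 250 kDa. In all 23 libraries, and for both RBFOX2 lists, significant peaks were overlapped less often than those that were not.

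**Figure D5:**
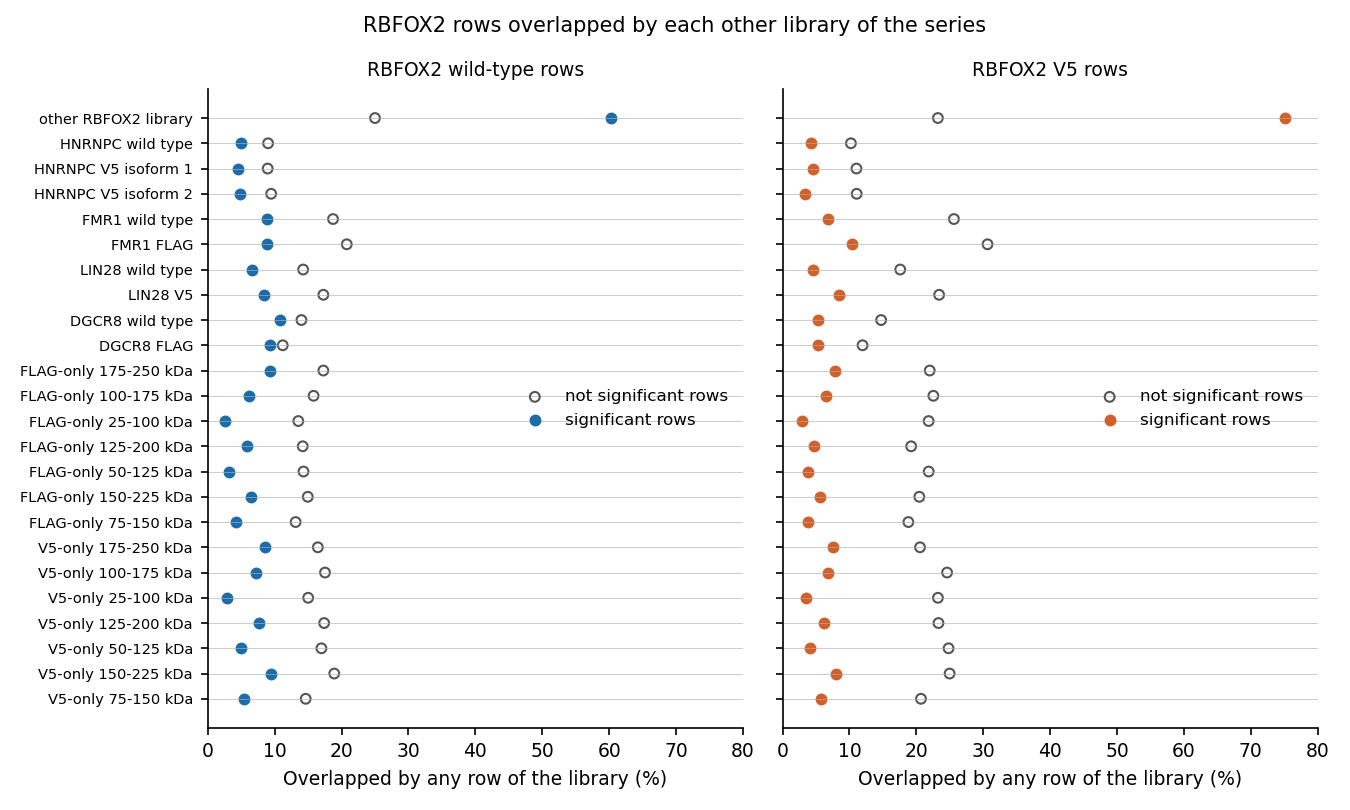
Share of significant (filled) and not significant (open) RBFOX2 peaks overlapped by any peak of each other library on the same strand, for wild-type peaks (left) and V5 peaks (right); lists differ in length. The other RBFOX2 library stands at 60.2% and 75.1% for significant peaks, where no other library exceeds 10.8%.

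RBFOX2 V5 peaks were also set against sites of the V5 antibody alone. Of the significant V5 peaks, 1.89% (1.37% to 2.61%) lay at a site significant in at least 1 of the 7 V5-only libraries, against 5.41% (5.21% to 5.62%) of V5 peaks that were not significant. The former share depended on the threshold and was 6.27% when significance in RBFOX2 V5 and in the V5-only lists required a log2 fold of at least 2. At the threshold of 3 it was 1.35% (0.776% to 2.35%) of V5 peaks also significant in wild type and 2.37% (1.60% to 3.50%) of the rest, and these intervals overlap. Wild-type significant peaks, made without a V5 antibody, stood at 1.34% (0.993% to 1.82%). Sites significant in a FLAG-only library, from lists of other lengths, held 2.21% (1.64% to 2.97%) of significant V5 peaks. They held 8.14% (7.89% to 8.39%) of V5 peaks that were not significant and 1.18% (0.854% to 1.63%) of significant wild-type peaks. By gel range, 25 of the 1900 peaks met V5-only at 125 to 200 kDa, which had the longest V5-only list with 6562 significant peaks, and 1 each met the ranges of 25 to 100 and 50 to 125 kDa.

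Sites shared with DGCR8, which works with DROSHA to cut primary microRNA transcripts, were more frequent among wild-type peaks, whereas sites of some other libraries were more frequent among V5 peaks. A significant peak of either DGCR8 library overlapped 64 significant RBFOX2 wild-type peaks, 2.10% (1.65% to 2.67%), and 14 V5 peaks, 0.737% (0.439% to 1.23%). The 64 wild-type peaks lay at 42 places more than 10 kb apart, and the 14 V5 peaks at 10. Of the 64, 53 had no overlapping significant V5 peak, against 2145 of all 3049 significant wild-type peaks. A DGCR8 peak overlapped 2.47% (1.89% to 3.22%) of those 2145 and 1.22% (0.681% to 2.17%) of the other 904, and these intervals overlap. The places with most wild-type peaks were chr22:20073441-20074445 on the plus strand, inside the densest RBFOX2 neighbourhood, and chr5:179046862-179047269 on the minus strand, with 6 each. Of these, 5 on chromosome 22 and 3 on chromosome 5 lacked a significant V5 peak. At chr13:92002826-92004131 on the plus strand all 4 wild-type peaks lacked a significant V5 peak. The order was the same with either DGCR8 antibody. DGCR8 wild type met 36 wild-type peaks, 1.18% (0.854% to 1.63%), and 6 V5 peaks, 0.316% (0.145% to 0.687%). DGCR8 FLAG met 43, 1.41% (1.05% to 1.89%), and 12, 0.632% (0.362% to 1.10%), and its intervals overlap. The order was the other way for FMR1 FLAG, which met 0.853% (0.583% to 1.25%) of wild-type and 2.42% (1.82% to 3.21%) of V5 significant peaks. LIN28 V5 met 0.886% (0.609% to 1.29%) and 1.74% (1.24% to 2.43%), and its intervals overlap. Over all peaks, significant or not, any DGCR8 wild-type peak overlapped 13.8% of RBFOX2 wild-type and 14.4% of RBFOX2 V5 peaks. These shares were 11.1% and 11.7% for DGCR8 FLAG, 19.9% and 29.8% for FMR1 FLAG, and 16.7% and 22.8% for LIN28 V5.

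The same measures were taken for LIN28, known for blocking let-7 microRNA maturation, and HNRNPC, which binds uridine-rich stretches of nascent transcripts. Any V5 peak of the same protein overlapped 97.0% of LIN28 significant wild-type peaks and 69.4% of those of HNRNPC with V5 isoform 1, against 60.2% in RBFOX2. In the other direction, any wild-type peak overlapped 76.2%, 82.4% and 75.1% of significant V5 peaks of LIN28, HNRNPC and RBFOX2. Among wild-type peaks that were not significant the shares were 47.0%, 34.3% and 25.0%, and among V5 peaks that were not significant 25.8%, 44.1% and 23.2%. The lists differ in length. In the same order, wild-type lists held 42707, 63020 and 43375 peaks and V5 lists 73182, 49319 and 47459. HNRNPC V5 isoform 2 was not included. The median V5 minus wild-type difference at pairs significant in both was 0.60 in LIN28 over 2360 pairs, −0.29 in HNRNPC over 94 pairs and −0.33 in RBFOX2. Spearman's rho of the folds at those pairs was 0.39, −0.05 and 0.30. With 1 library per state these differences between proteins were not tested.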

How the data were processed

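Peak lists were analysed for RBFOX2 wild type and RBFOX2 V5, with the other 23 lists for comparison. Per the submitters' processing notes, build hg19 and the tools cutadapt, STAR, GATK, Picard and SAMtools were used. The name of the peak caller was not given in the sources used here. The authors deposited a −log10 p and a log2 fold over size-matched input per peak. Each library had its own list and input. Folds therefore share no scale beyond the authors' depth normalisation, and read totals are unknown.

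Here, peaks with −log10 p of at least 3 and log2 fold of at least 3 were called significant, a threshold not taken from the labels. Overlap, merging (gaps of at most 50 nt) and Wilson intervals were computed with Python 3.11.15, pandas 2.3.3, numpy 2.4.6 and scipy 1.17.1, after the functions were tested on simulated data. No test was made between states.

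Regions were named by rule: the 10 highest by the lower fold in both libraries, and the 5 highest in each library without a peak of the other within 1 kb. Parts of the rule that need genes were not used. Members, lists and thresholds were chosen with earlier results of these data known. Neighbourhoods, the highest single peaks and the region with most peaks were added after seeing the data. Also outside the planned measures were the comparisons with DGCR8, FMR1, LIN28 and HNRNPC libraries and the overlap with any peak of other libraries. The shares at the threshold, the reading of fold steps and the displacement of peak ends were likewise not planned.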

Additional observations from a re-analysis of the deposited data

How the results depend on the processing

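The share of significant wild-type peaks overlapped by a significant V5 peak, 29.6%, was 34.6% at a −log10 p of at least 5, 36.8% at a log2 fold of at least 2, 23.1% where 50% of both peaks had to be shared, 50.4% within 1 kb, 56.7% within 10 kb and 0% on the opposite strand. The share of V5 peaks, 46.6%, was 54.9%, 49.7%, 37.0%, 60%, 64.0% and 0% under the same settings, and 31.1% in lists of the 1000 peaks of highest fold. Over all peaks, the wild-type share of 27.5% became 16.9% with 50% of both peaks shared, 62.2% within 1 kb, 0.0945% on the opposite strand and 25.7% without tag-only sites, and the V5 share of 25.3% became 15.5%, 57.9%, 0.0843% and 24.4%. Significant peaks fell to 1911 in wild type and 1177 in V5 at a −log10 p of at least 5, and V5 rose to 2997 at a log2 fold of at least 2. Regions significant in both numbered 1114 at that looser fold and 215 in lists of 1000 peaks. The median V5 minus wild-type difference was −0.44 and −0.43 in these 2 settings. V5 peaks at V5-only sites were 1.02% at the stricter p, 6.27% at the looser fold and 0.737% where at least 2 V5-only libraries had to be significant. Of 53 alternatives, 22 stayed within the main interval or within 1.5 times the main count, among them removal of the 8 neighbourhoods of most regions. The ranges of 10 kb, those neighbourhoods and regions with overlapping peaks were added after seeing the data. The cause of these shifts was not tested. Motif and intron shares were not run, since no sequence or annotation of hg19 was used here. No paired analysis was possible because each state has 1 library. Read depth is unknown, which limits what absence from a list can show.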
